A study of Mus musculus with 11 samples.

Results

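Club cells are the secretory cells of the conducting airways, and 10 genes whose products mark or characterize them were followed in mouse lung tumors and adjacent normal lung. The members were Scgb1a1, Scgb3a1, Scgb3a2, Bpifa1, Bpifb1, Reg3g, Cckar, Gabrp, Lypd2 and Chad, taken by name from the table of transcript counts. They fill 13 transcript rows, summed by gene, and are 10 of the 24515 genes in the table. Some products are secreted and some are not: Cckar and Gabrp encode membrane receptors, Lypd2 a protein of the membrane-anchored LY6/PLAUR family, and Chad a matrix protein first known from cartilage.

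Club cells line the bronchioles and secrete small proteins into the fluid that covers the airway. The most abundant of these is the secretoglobin of Scgb1a1, also called CC10 or uteroglobin, which is the standard marker of the cell. The cells also metabolize foreign compounds with cytochrome P450 enzymes, and they can divide to replace themselves and ciliated cells after injury. Antimicrobial proteins such as those of the BPI fold and regenerating islet-derived families are made by airway secretory cells higher in the airway or during inflammation.

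All 11 libraries came from mice lacking Gprc5a (Gprc5a-/-), an orphan receptor gene expressed in lung epithelium, and all of these mice had received NNK, a nitrosamine carcinogen of tobacco smoke. For 8 weeks it was injected into the peritoneum 3 times weekly, at 50 mg per kg of body weight. There were 5 adjacent normal lungs (normal) and 6 tumors from 5 mice, and the tumors carry the title tags ADN (3) and ADC (3), which the labels do not spell out. Both a tumor tagged ADN and another tagged ADC came from mouse m335, at 4 months after NNK, and are compared with the same normal lung. The other ADN tumors came from mouse m368 at 6 months and mouse m350 at 7 months. The remaining ADC tumors came from mice m372 and m378, also at 7 months. The normal lungs carried the same deletion and carcinogen exposure as the tumors. Lungs with intact Gprc5a or without NNK were not analysed here, and ages and strain background were not given in the sources used here.

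Depth ran from 19938822 counts in the normal lung of m372 to 46987587 in the ADC tumor of m372, and the other libraries held between 27504579 and 33489677. Levels are in CPM, the usual scaling of counts to a common library size, after correction of the sizes by TMM, the trimmed mean of M-values. Gprc5a was between 0.0 and 0.642 CPM in the 11 libraries. Of 8 endothelial genes 7 passed the test in tumors and all of these were lower, while of 11 alveolar type 2 genes 4 passed and were higher. Summed over the 11 alveolar type 2 genes, 5 tumors held 111631 to 140084 CPM and the ADC tumor of m335 held 38184 CPM, compared with 43730 to 59024 CPM in normal lungs. Endothelial Cldn5, the most abundant of its list, fell by 3.03 (SE 0.28), and Tek, Vwf and Cdh5 fell by 2.70, 2.5 and 2.46. The 4 alveolar type 2 genes were Sftpa1, Cxcl15, Sftpd and Lamp3, with log2 differences of 0.91 to 1.46, and Sftpc, the most abundant, had 0.78 ± 0.40 (adjusted p = 0.256). Smooth muscle genes (4 of 9: Myh11, Lmod1, Des and Smtn), fibroblast genes (3 of 8: Tcf21, Mfap4 and Pdgfra), alveolar type 1 genes (3 of 8: Spock2, Rtkn2 and Hopx) and 1 of 3 neuroendocrine genes (Syp) were called lower, with log2 differences of -3.09 to -0.93, and 1 of 9 macrophage genes (Ear1) was higher by 1.17. The most abundant genes of those lists that were not called were Acta2 (-0.88), Col3a1 (-0.29), Ager (-0.84) and Chil3 (0.44). The tissue was sequenced in bulk, so fewer cells of a type and less RNA per cell cannot be told apart.

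Ordered by level per kilobase of transcript, Scgb1a1 led the members in normal lung at 16180 ± 15154 CPM per kilobase (SD, n = 5), followed by Scgb3a2 at 448 ± 467. Bpifa1 at 14.5 ± 12.1, Scgb3a1 at 9.87 ± 3.61 and Cckar at 9.11 ± 7.40 formed the next step, and their ranges overlapped. Gabrp at 4.42 ± 4.17, Lypd2 at 3.86 ± 3.61 and Chad at 2.78 ± 2.09 also overlapped one another, and Reg3g at 1.15 ± 0.683 and Bpifb1 at 0.546 ± 0.247 were lowest. In the 6 tumors Scgb1a1 still had the highest mean, 4511 ± 7597 CPM per kilobase, and Bpifa1 came next at 385 ± 425, ahead of Scgb3a2 at 205 ± 311. Within single libraries the order differed further. In the ADN tumor of m335 Bpifa1 stood at 1038 CPM per kilobase and Scgb1a1 at 690, and in the ADN tumor of m368 the pair stood at 284 and 264. These were the only libraries in which Bpifa1 was the higher of the pair per kilobase. In CPM, without division by length, Bpifa1 was also the higher in the ADC tumor of m335 (856 against 582).

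**Figure D1:**
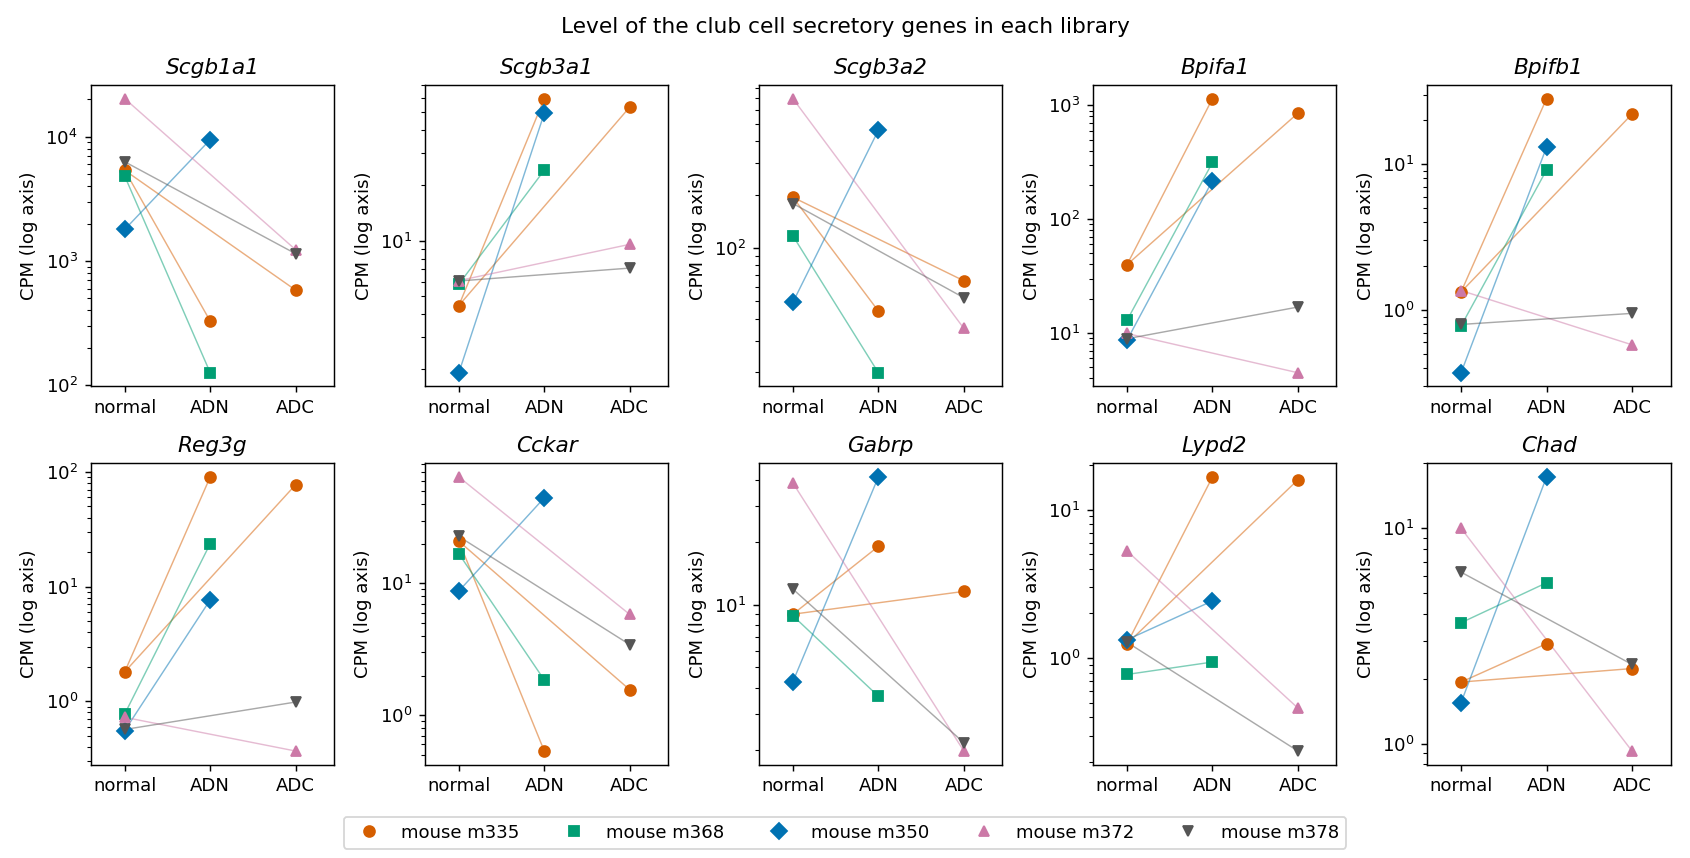
Level of each of the 10 genes in the 11 libraries, in CPM on a logarithmic axis, with 1 panel per gene and points grouped as normal lung, ADN and ADC tumor. Scgb1a1 and Cckar sit below all normal lungs in 5 of 6 tumors and Scgb3a1 sits above all normal lungs in 6 of 6. Bpifa1, Bpifb1 and Reg3g are high in the 3 ADN tumors and the ADC tumor of m335. The shares of all genes with these partial splits were not counted.

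Scgb1a1 (GRCm38 chr19:9083642-9087956, minus strand) was measured at 5365, 4816, 1794, 20249 and 6285 CPM in the normal lungs of m335, m368, m350, m372 and m378. The ADN tumors of m335, m368 and m350 held 328, 126 and 9475 CPM, and the ADC tumors of m335, m372 and m378 held 582, 1230 and 1143 CPM. Every tumor except the ADN tumor of m350 lay below the lowest normal lung. Against their own normal lungs these 5 tumors were 5.50-fold to 38.3-fold lower, whereas the m350 tumor was 5.28-fold higher than its own normal lung, the lowest normal lung of the series. Over all genes tested, 29.2% were lower than in the own normal lung in at least 5 of 6 tumors. All tumors lay below every normal lung for 7.91% of genes. The share with 5 of 6 tumors below every normal lung was not counted. The fitted log2 difference between tumors and normal lungs was -3.10 ± 0.97 (SE) and did not pass the test (adjusted p = 0.0754, edgeR quasi-likelihood test). Without the ADN tumor of m350, the only tumor above its own normal lung, the adjusted p was 0.00571. That was the lowest value over 23 alternative settings. The highest was 0.254, and Scgb1a1 was called in 4, DESeq2 and the omissions of m350. The settings are not independent. For a mouse with a single tumor, leaving out the tumor, the normal lung or the mouse gave nearly the same fit.

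Scgb3a2, a secretoglobin of the small airways whose product is also called UGRP1, lies at chr18:43764301-43767399 on the plus strand. Its levels in the normal lungs, in the same order of mice, were 193, 117, 49.4, 694 and 178 CPM. The ADN tumors held 44.1, 19.8 and 461 CPM and the ADC tumors 65.3, 35.2 and 52.4 CPM. As with Scgb1a1, the ADN tumor of m350 was the highest tumor, at 9.33-fold above its own normal lung, and the other 5 were 2.96-fold to 19.8-fold below theirs. Only 3 tumors lay under the lowest normal lung. In the fit the log2 difference was -1.81 ± 0.88, with an adjusted p of 0.234. The adjusted p was 0.0171 without the ADN tumor of m350, the lowest value over 23 alternative settings. The highest was 0.476, and Scgb3a2 was called in 3, all of them omissions of m350.

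Cckar (chr5:53698485-53707704, minus strand) encodes the A-type receptor of the peptide hormone cholecystokinin, best known from the gallbladder and pancreas. It was measured at 20.9, 16.8, 8.75, 64.2 and 22.7 CPM in the normal lungs. In the ADN tumors it was 0.535, 1.85 and 44.6 CPM, and in the ADC tumors 1.56, 5.81 and 3.43 CPM. The same 5 tumors as for Scgb1a1 lay below all normal lungs, by 6.62-fold to 39.1-fold against their own, and the ADN tumor of m350 was 5.09-fold higher. As for Scgb1a1, the share of all genes with this split was not counted. The fitted log2 difference was -2.86 ± 0.87 (adjusted p = 0.0713), and the adjusted p was 0.00471 without that tumor. Over 23 alternative settings the adjusted p ran from 0.000246 (DESeq2) to 0.352. Cckar was called in 4, DESeq2 and the omissions of m350. The genes for the ligand and for the other receptor, Cck and Cckbr, both averaged below 1 CPM.

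The normal lungs themselves were unequal for these 3 genes. The normal lung of m372 was the highest of the 5 for Scgb1a1, Scgb3a2 and Cckar, and the normal lung of m350 was the lowest for each. Between those 2 lungs Scgb1a1 ranged from 1794 to 20249 CPM. Ciliated cell genes mark the other main cell of the bronchioles, and 14 of 15 listed were tested. Tppp3, the most abundant, alone passed the test and fell by 1.89 (SE 0.33, adjusted p = 0.00804). Their full sum was 734, 473, 464, 695 and 645 CPM in the normal lungs of m335, m368, m350, m372 and m378, 265, 157 and 655 CPM in the ADN tumors of m335, m368 and m350, and 241, 118 and 192 CPM in the ADC tumors of m335, m372 and m378. As for Scgb1a1, 5 tumors lay below every normal lung in this sum and the ADN tumor of m350 did not. Tppp3 made up most of the sum in normal lungs. The sum without it was 116, 93.7, 51.6, 228 and 126 CPM in the normal lungs, 166, 47.6 and 283 CPM in the ADN tumors, and 118, 35.0 and 71.1 CPM in the ADC tumors, where 3 tumors lay inside the normal range. No listed ciliated gene was at 0 in all libraries, and the part of airway content in the levels of the members was not tested.

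**Figure D2:**
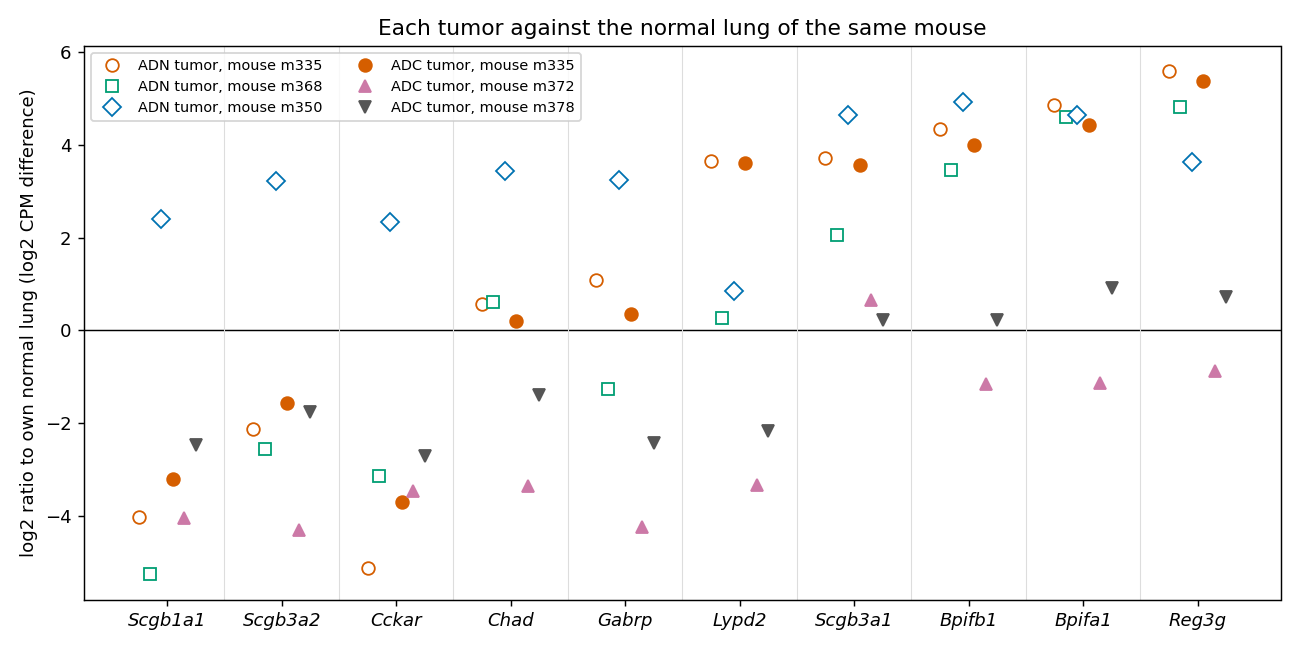
Log2 ratio of each tumor to its own normal lung for the 10 genes, with ADN and ADC tumors as separate symbols. The ADN tumor of m350 lies at 2.4 for Scgb1a1, where the other 5 tumors lie between -5.26 and -2.46, and for Bpifa1 the 3 ADN tumors and the ADC tumor of m335 lie between 4.42 and 4.85.

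The remaining secretory members had another pattern. The promoters are printed because the genes Bpifa1, Bpifb1, Reg3g and Scgb3a1 had similar profiles over the libraries. Each is the 250 bases before the transcription start in RefSeq (GRCm38.p6), read 5′ to 3′ on the gene's own strand. Promoters of 6 of the 10 members were examined (Bpifa1, Bpifb1, Reg3g, Gabrp, Scgb3a1 and Chad), and those of the other members were not. Capitals mark matches on either strand to the TATA box (TATAAA), a forkhead motif (TGTTTNC), an NKX2-1 motif (CAAGTG), a STAT motif (TTCNNNGAA) or a C/EBP motif (TTGCNNAA).
Bpifa1, chr2:154142630-154142879, plus strand: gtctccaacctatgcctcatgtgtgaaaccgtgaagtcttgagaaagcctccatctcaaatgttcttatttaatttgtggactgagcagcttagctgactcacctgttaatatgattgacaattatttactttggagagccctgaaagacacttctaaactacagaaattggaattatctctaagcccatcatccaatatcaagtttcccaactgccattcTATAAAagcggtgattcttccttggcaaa
Reg3g, chr6:78468875-78469124, minus strand: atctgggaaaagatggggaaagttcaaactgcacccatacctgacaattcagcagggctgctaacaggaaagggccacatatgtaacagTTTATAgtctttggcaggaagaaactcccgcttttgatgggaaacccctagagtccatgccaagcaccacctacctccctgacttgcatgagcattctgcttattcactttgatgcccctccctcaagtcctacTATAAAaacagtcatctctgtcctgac
Scgb3a1, chr11:49663345-49663594, plus strand: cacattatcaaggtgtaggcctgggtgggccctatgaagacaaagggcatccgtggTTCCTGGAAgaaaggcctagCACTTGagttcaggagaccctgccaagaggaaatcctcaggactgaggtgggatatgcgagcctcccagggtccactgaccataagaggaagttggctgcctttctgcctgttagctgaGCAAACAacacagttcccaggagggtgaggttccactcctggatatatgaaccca
Bpifb1 (first start), chr2:154190568-154190817, plus strand: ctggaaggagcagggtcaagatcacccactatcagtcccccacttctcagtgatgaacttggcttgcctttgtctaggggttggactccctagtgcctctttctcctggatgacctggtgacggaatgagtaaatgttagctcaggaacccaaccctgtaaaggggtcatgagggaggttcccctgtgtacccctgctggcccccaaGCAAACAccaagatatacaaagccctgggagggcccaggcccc

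Bpifa1 has a TATA box match that begins 29 bases before its start, and Reg3g has matches that begin 27 and 161 bases before its start, the latter on the opposite strand. Over 32536 promoters of the same length, 12.3% hold this motif. The printed windows of Scgb3a1 and Bpifb1 have no TATA match and each has a forkhead match. It begins 55 and 43 bases before the start and is found in 17.8% of promoters. Scgb3a1 also has a STAT match at 194 bases and an NKX2-1 match at 174 bases before its start, motifs found in 7.04% and 11.5% of promoters. Bpifb1 has a second start, whose window (chr2:154200130-154200379) is not printed. That window has no forkhead or TATA match and has a STAT match at 146 bases. The shorter Bpifb1 transcript begins there and was given 0.0% to 99.5% of the gene's counts, depending on the library. The C/EBP motif, found in 9.57% of promoters, has no match in the 4 windows. No motif was shared by all 4 promoters, and a match describes letters only.

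Scgb3a1 (chr11:49663595-49665118, plus strand), a secretoglobin typical of larger airways and also called HIN-1, was the only member whose tumor and normal levels did not overlap. The normal lungs of m335, m368, m350, m372 and m378 held 4.45, 5.81, 1.92, 6.08 and 6.05 CPM. The ADN tumors of m335, m368 and m350 held 59.2, 24.2 and 49.3 CPM, and the ADC tumors of m335, m372 and m378 held 53.3, 9.57 and 7.11 CPM. It was higher than the own normal lung in 6 of 6 tumors, by 1.17-fold to 25.7-fold, and the smallest steps were in the ADC tumors of m372 and m378. Of all genes tested, 8.38% were higher in 6 of 6 tumors and 3.55% had tumor levels above all normal lungs. The fitted log2 difference was 2.28 ± 0.68, with an adjusted p of 0.0664. Without the replicate block, the term that pairs tumors with normal lungs of the same mouse, its adjusted p was 0.00654. Over 23 alternative settings the adjusted p ran from 0.000287 (DESeq2) to 0.182. Scgb3a1 was called in 5: DESeq2, no replicate block and the omissions of m378.

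Bpifa1 (chr2:154142880-154149217, plus strand) encodes SPLUNC1, a secreted BPI fold protein of the upper airways with antimicrobial and surface-active properties. In normal lungs it was measured at 39.8, 12.9, 8.63, 9.90 and 8.90 CPM. The ADN tumors held 1147, 315 and 218 CPM, and the ADC tumors held 856, 4.47 and 16.9 CPM. All 3 ADN tumors and the ADC tumor of m335 were above every normal lung, by 21.5-fold to 28.9-fold against their own. The ADC tumor of m372 stood 2.21-fold below its own normal lung and that of m378 stood 1.90-fold above it. In ADN tumors against normal lungs Bpifa1 rose, with a log2 difference of 4.04 ± 1.0 (SE, adjusted p = 0.0497), the only member to pass in any comparison. That call sits at the threshold: over 23 alternative settings the adjusted p ran from 0.000547 to 0.188 and the call was kept in 9.

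Bpifb1 (chr2:154190818-154220343, plus strand), which encodes the longer BPI fold protein LPLUNC1, lies next to Bpifa1 on chromosome 2 in the same orientation. Its normal lungs held 1.33, 0.777, 0.371, 1.36 and 0.796 CPM. Levels in the ADN tumors were 28.2, 9.14 and 13.1 CPM, and in the ADC tumors 22.1, 0.577 and 0.948 CPM. The groups again split by library, with the same 4 tumors above every normal lung and the other ADC tumors inside the normal range. In ADN tumors against normal lungs the fitted log2 difference was 3.62 ± 1.03 (adjusted p = 0.0757). Counts in normal lungs were few, between 12 and 47. The deposited table splits this gene over 2 transcripts, and the share given to the longer transcript was 100% in the normal lung of m335, 85.6% in that of m368, 89.3% and 94.0% in the ADN and ADC tumors of m335, 0.5% in the normal lung of m378, and 25.0% or 25.1% in the other 6 libraries. Only the sum of the transcripts is used here.

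Reg3g (chr6:78466269-78468874, minus strand) encodes a secreted C-type lectin that binds gram-positive bacteria. In the normal lungs 1.81, 0.777, 0.557, 0.726 and 0.569 CPM were measured. The ADN tumors held 90.4, 23.7 and 7.68 CPM, and the ADC tumors 77.5, 0.369 and 0.987 CPM. Both tumors of m335 were the highest libraries, at 49.8-fold and 42.7-fold above their own normal lung, and the ADC tumors of m372 and m378 were at 0.987 CPM or less, beside 0.557 to 1.81 CPM in normal lungs. The fitted log2 difference was 3.91 ± 1.06 in ADN tumors against normal lungs (adjusted p = 0.0665). For the 4 genes Scgb3a1, Bpifa1, Bpifb1 and Reg3g, the 3 ADN tumors exceeded all 5 normal lungs, which held for 9.34% of all genes tested. The share with the ADC tumor of m335 above every normal lung as well was not counted.

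Because the ADN and the ADC tumor of m335 came from the same mouse at the same time after NNK, the mouse and the 4-month time cannot be told apart for the high values they share. Without the ADC tumor of m335, the fitted log2 differences of ADC tumors against normal lungs were -0.08 for Bpifa1, -0.48 for Bpifb1 and -0.02 for Reg3g, in place of 1.83, 1.49 and 2.25 with it. Sums over goblet cell genes split the libraries in the same way, and sums over basal cell genes did so only in part. The goblet cell list (8 of 9 genes in the table) summed to 1.42 to 4.17 CPM in normal lungs, 29.8, 19.8 and 13.6 CPM in the ADN tumors of m335, m368 and m350, 23.9 CPM in the ADC tumor of m335, and 2.51 and 4.94 CPM in those of m372 and m378. Of 7 goblet genes tested 0 passed by edgeR in tumors against normal lungs, 4 had an unadjusted p under 0.05, and DESeq2 called 4 (Clca1, Foxa3, Spdef and Tff2). Spdef, a goblet cell factor and the most abundant of the list, had a log2 difference of 1.78 ± 0.62 (adjusted p = 0.104). The basal cell list (8 genes) summed to 7.27 to 26.8 CPM in normal lungs, 52.8, 21.3 and 9.0 CPM in the ADN tumors, and 54.4, 3.16 and 2.53 CPM in the ADC tumors, so the tumors of m335 alone exceeded the normal lungs. Of 7 basal genes tested in tumors against normal lungs 0 passed by edgeR, 0 had an unadjusted p under 0.05 and DESeq2 called 0. In ADN tumors against normal lungs 0 passed by edgeR, 1 had an unadjusted p under 0.05 and DESeq2 called 1 (Krt15). Krt15, a basal keratin, accounted for 34.1 and 22.3 CPM of the m335 tumor sums, which were 18.7 and 32.1 CPM without it. Of 11 squamous epithelium genes 5 were tested and 2 rose in tumors: Ivl, which encodes involucrin, by 3.51 ± 0.71 (adjusted p = 0.0140), and Sprr1a, a cornified envelope gene, by 2.15 ± 0.46 (adjusted p = 0.0172). Their summed list was 46.0 and 64.2 CPM in the ADN and ADC tumors of m335 and 2.21 to 24.0 CPM in the other tumors, beside 2.46 to 28.9 CPM in normal lungs. In tumors against normal lungs the median log2 difference was 1.90 over the 7 goblet genes tested and -0.67 over the 7 basal genes tested, beside -0.03 over all genes. The part of any of these cell types in the levels of the members was not tested.

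Gabrp (chr11:33550781-33578957, minus strand), the pi subunit of the GABA-A receptor, is expressed in several epithelia. Its normal lungs held 9.01, 8.86, 4.27, 38.5 and 11.9 CPM. The ADN tumors held 19.1, 3.63 and 41.2 CPM, and the ADC tumors 11.6, 1.98 and 2.17 CPM. The groups overlapped, and the ratio to the own normal lung went from 9.65-fold higher in the ADN tumor of m350 to 19.4-fold lower in the ADC tumor of m372. The fitted log2 difference in tumors was -0.83 ± 1.08 (adjusted p = 0.683).

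Lypd2 (chr15:74732252-74734313, minus strand) was high in a few libraries only. Normal lungs held 1.25, 0.777, 1.33, 5.27 and 1.28 CPM, ADN tumors 16.6, 0.942 and 2.43 CPM, and ADC tumors 15.9, 0.461 and 0.237 CPM. The tumors of m335 were 13.3-fold and 12.7-fold above their own normal lung, and the ADC tumors of m372 and m378 were 11.4-fold and 5.40-fold below theirs. With 6 to 495 counts per library, its fitted log2 difference was -0.17 ± 1.07 (adjusted p = 0.943).

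Chad (chr11:94565074-94569127, plus strand) encodes chondroadherin, a leucine-rich repeat protein of the matrix. It was measured at 1.93, 3.64, 1.55, 9.99 and 6.25 CPM in normal lungs, 2.91, 5.58 and 17.3 CPM in ADN tumors, and 2.23, 0.923 and 2.33 CPM in ADC tumors. The ADN tumor of m350 was 11.2-fold above its own normal lung and the ADC tumor of m372 was 10.8-fold below, and the groups overlapped. In tumors against normal lungs the log2 difference was -0.05 ± 0.89 (adjusted p = 0.982). Acan, Col2a1 and Matn1, which define cartilage, were each at or under 0.357 CPM in every library. Matn4, the most abundant gene of the cartilage list, had a log2 difference of 0.10 ± 0.34 (adjusted p = 0.894). Chad lies inside the span of Acsf2, a gene on the opposite strand. Whether their exons overlap was not checked, and the strand setting of the counting was not given in the sources used here. Reads of Acsf2 may therefore be counted for Chad, which was not tested.

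In tumors against normal lungs 0 of the 10 members passed an adjusted p of 0.05 by edgeR, where 11.6% of the 15175 genes tested passed (3.68% higher and 7.91% lower). At an unadjusted p under 0.05 there were 6 members, 4 higher (Scgb3a1, Bpifa1, Bpifb1 and Reg3g) and 2 lower (Scgb1a1 and Cckar), compared with 26.4% of all genes. DESeq2 called those same 6 at its adjusted p, and 21.7% of all genes. In edgeR without the replicate block Bpifa1, Bpifb1 and Reg3g passed beside Scgb3a1 (adjusted p = 0.0207, 0.0166 and 0.0164), and without the libraries of m372 the first 3 passed with the block (0.0205, 0.0447 and 0.0263). The median log2 difference was -0.11 over the members and -0.03 over all genes, and the median standard error was 1.0 for members and 0.27 for all genes. For Scgb1a1 the tumor mean was 2147 ± 3616 CPM (SD, n = 6) and the normal mean 7702 ± 7213 CPM (n = 5), and for Bpifa1 these were 426 ± 470 and 16.0 ± 13.4 CPM.

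In ADN tumors against normal lungs 1 member was called, Bpifa1, against 7.53% of all genes in either direction, 2.68% in the higher and 4.84% in the lower direction. At an unadjusted p under 0.05 there were 4 members, all higher, and 24.0% of genes. DESeq2 called Scgb3a1, Bpifa1, Bpifb1, Reg3g and Cckar and 19.3% of genes. Without the replicate block edgeR called the first 4 of these (adjusted p = 0.00730, 0.0281, 0.0192 and 0.0262). Scgb1a1 had a fitted log2 difference of -3.15 ± 1.71 and Cckar of -2.43 ± 1.52 (adjusted p = 0.311 and 0.381), and the ADN tumor of m350 lay on the other side of its normal lung from the other ADN tumors.

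In ADC tumors against normal lungs, which shares its normal lungs with the ADN comparison, 0 members passed by edgeR where 4.99% of genes did (1.01% higher and 3.98% lower). At an unadjusted p under 0.05 there were 3 members and 18.6% of genes, and DESeq2 called Cckar alone and 12.2% of genes. Without the replicate block edgeR called Scgb3a1 and Reg3g (adjusted p = 0.0350 and 0.0430). Cckar was 3.60 ± 2.13 CPM (SD, n = 3) in ADC tumors and 26.7 ± 21.7 CPM (n = 5) in normal lungs, with a fitted log2 difference of -3.06 ± 1.09 (adjusted p = 0.180). Scgb1a1 was 985 ± 352 and 7702 ± 7213 CPM in these groups, a log2 difference of -3.07 ± 1.17 (adjusted p = 0.210). For both, all 3 ADC tumors lay below all 5 normal lungs, as did 13.2% of all genes. Without any library of m350 both passed the test, with adjusted p values of 0.0200 each. Mouse m350 gave no ADC tumor, so its omission acts on this comparison mainly through the spread that the groups share in the fit. It adds no evidence on ADC tumors. Over 23 alternative settings the adjusted p ran from 0.0199 to 0.439 for Scgb1a1, which was called in 3, all of them omissions of m350. For Cckar it ran from 0.00441 (DESeq2) to 0.439, with a call in 4, DESeq2 and the omissions of m350.

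Between ADC and ADN tumors 0 members passed by edgeR, and 0.0% of all genes did. No member reached an unadjusted p under 0.05 there, compared with 6.54% of genes, and DESeq2 called 0 members and 0.824% of genes. The fitted log2 differences with the smallest adjusted p were -2.20 ± 1.07 for Bpifa1 (0.769), -2.24 ± 1.11 for Chad (0.775) and -2.13 ± 1.11 for Bpifb1 (0.778). With 3 tumors a group and 1 mouse in both, a standard error above 1 on the log2 scale leaves differences of several fold undetectable here.

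**Figure D3:**
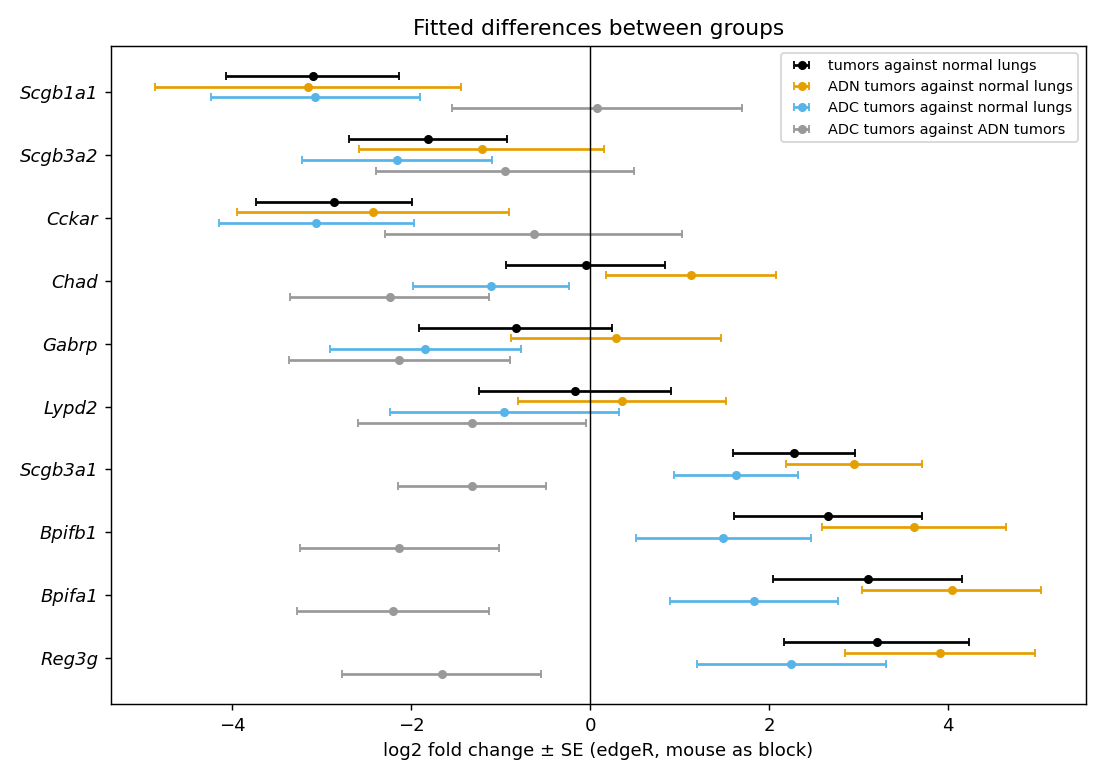
Fitted log2 difference with its standard error for the 10 genes in tumors, ADN tumors and ADC tumors, each against normal lungs, and in ADC against ADN tumors, with 1 color per comparison. Bpifa1 in ADN tumors, at 4.04 ± 1.0, is the only point that passed the adjusted threshold, and Gabrp, Lypd2 and Chad cross 0 in tumors against normal lungs.

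The mix of members differed between libraries in ways that the level of any 1 gene does not show. Per 1000 counts of Scgb1a1, normal lungs held 24.3 to 36.0 counts of Scgb3a2, so the pair kept nearly the same proportion although its level differed widely between lungs. The ADN tumors of m335, m368 and m350 held 134, 157 and 48.7, and the ADC tumors of m335, m372 and m378 held 112, 28.6 and 45.8. Cckar stayed at 3.17 to 4.88 per 1000 Scgb1a1 counts in normal lungs and at 1.63 to 14.7 in tumors. Bpifa1 ranged from 0.489 to 7.41 per 1000 Scgb1a1 counts in normal lungs and reached 3496, 2500 and 1471 in the ADN tumors of m335 and m368 and the ADC tumor of m335. In the ADN tumor of m350, where Scgb1a1 was also high, it was 23.0. Reg3g per 1000 counts of Bpifa1 stayed between 35.3 and 90.5 in all 11 libraries, a range of 2.57-fold, although Bpifa1 itself ran from 4.47 to 1147 CPM.

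**Figure D4:**
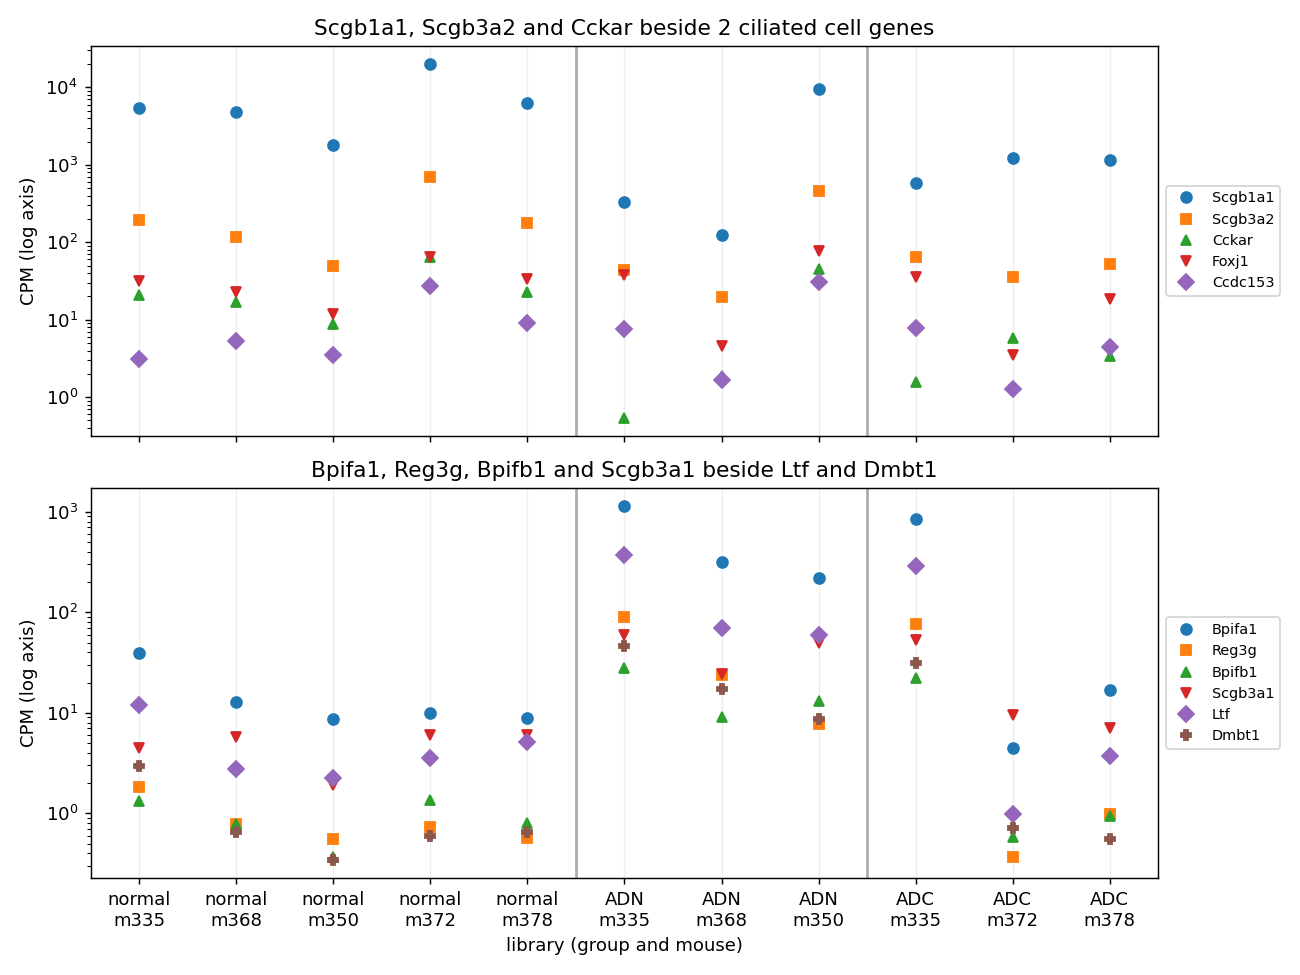
Levels in each of the 11 libraries, in CPM on logarithmic axes: Scgb1a1, Scgb3a2 and Cckar beside the ciliated cell genes Foxj1 and Ccdc153 in the upper panel, and Bpifa1, Reg3g, Bpifb1 and Scgb3a1 beside Ltf and Dmbt1 in the lower panel. Foxj1 is highest in the ADN tumor of m350, at 76.9 CPM, where Scgb1a1 is 9475 CPM, and Bpifa1 is at least 218 CPM in the 3 ADN tumors and the ADC tumor of m335 and at most 39.8 CPM in the other 7 libraries.

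Correlations of log2 CPM over the 11 libraries describe these profiles, with the caution that libraries of 1 mouse are not independent. Scgb1a1 correlated with Cckar at 0.940 and with Scgb3a2 at 0.917. Bpifa1 correlated with Reg3g at 0.990 and with Bpifb1 at 0.973, and Scgb3a1 correlated with Bpifb1 at 0.946 and with Bpifa1 and Reg3g at 0.873 each. Between the 2 sets the values were negative, for example -0.615 for Scgb1a1 and Reg3g and -0.549 for Scgb1a1 and Bpifa1. Gabrp was nearest to Scgb3a2 (0.785) and Chad (0.742), and Lypd2 to Bpifb1 (0.718), so these 3 genes joined neither set closely.

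**Figure D5:**
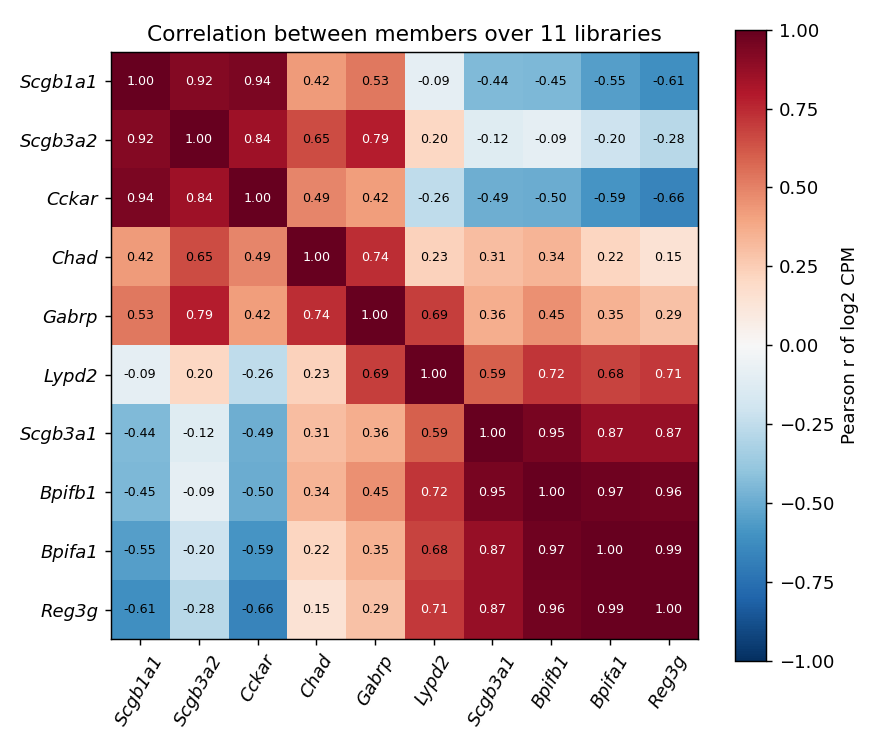
Pearson correlation of log2 CPM between the 10 genes over 11 libraries, drawn as a colored matrix. Scgb1a1 has values of 0.917 with Scgb3a2 and 0.940 with Cckar, and Scgb3a1, Bpifa1, Bpifb1 and Reg3g form a block with values from 0.873 to 0.990.

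Among all genes tested, the 10 most like Scgb1a1 in profile were Rttn (0.960), Cckar (0.940), Ccdc154 (0.936), Tnn (0.936), Col8a2 (0.934), Gm6644 (0.933), Scn4a (0.927), Cldn10 (0.921), Tmod4 (0.919) and Iah1 (0.919). Scgb3a2 ranked 12. Col8a2, which encodes a short-chain collagen, was 7.24 to 17.9 CPM in normal lungs, 18.6 CPM in the ADN tumor of m350 and 0.14 to 2.57 CPM in the other 5 tumors. Cldn10, a tight junction gene used as a club cell marker, was 1.92 to 15.1 CPM in normal lungs, 9.10 CPM in the ADN tumor of m350 and at most 2.4 CPM in the others. Most like Reg3g were Bpifa1 (0.990), Ltf (0.981), Dmbt1 (0.978), Bpifb1 (0.964) and BC048546 (0.961), and Scgb3a1 ranked 32.

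Some genes of the Reg3g profile encode antimicrobial proteins. Ltf, which encodes the iron-binding protein lactoferrin, was 2.23 to 11.9 CPM in normal lungs, highest in the ADN tumor of m335, 69.5 and 59.6 CPM in those of m368 and m350, 288 CPM in the ADC tumor of m335, and 0.992 and 3.75 CPM in those of m372 and m378. Dmbt1, a scavenger receptor gene of mucosal surfaces, was 0.340 to 2.95 CPM in normal lungs, 46.5, 17.2 and 8.78 CPM in the ADN tumors, and 31.7, 0.715 and 0.553 CPM in the ADC tumors. Dmbt1 rose in ADN tumors against normal lungs by 3.95 ± 0.80 (adjusted p = 0.0269), and Ltf did not pass there (3.90 ± 1.23, adjusted p = 0.0981). Ltf and Dmbt1 were named for their profile over these same libraries, so their tests are not separate evidence. Both genes belong to a list of 19 mucosal defense genes, of which 16 were tested: 0 were called higher and 1 lower in tumors against normal lungs, and the median log2 difference was 0.40. In ADN tumors 1 was called higher and 1 lower, Dmbt1 and Lyz1. Lyz1, an airway and Paneth cell lysozyme, had a log2 difference of -2.83 ± 0.56 in that comparison (adjusted p = 0.0249). It was also the lower gene in tumors against normal lungs, where it fell by 2.11 (SE 0.48, adjusted p = 0.0235). It was lower in 6 of 6 tumors. Lyz2, the lysozyme of macrophages and alveolar type 2 cells and the most abundant of the list, had a log2 difference of 0.24 ± 0.31 (adjusted p = 0.692).

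Enzymes and other genes of club cells outside the members were also listed. Of 18 listed, 17 were tested, 1 was called higher and 1 lower in tumors against normal lungs, and the median log2 difference was -0.63, compared with -0.03 over all genes. Gsta4, a glutathione transferase gene, rose by 1.57 ± 0.28 (adjusted p = 0.00878) and was higher in 6 of 6 tumors. Aldh1a1, a retinaldehyde dehydrogenase gene, fell by 1.92 (SE 0.39, adjusted p = 0.0146) and was lower in 6 of 6. Cbr2, the most abundant of the list and a carbonyl reductase gene, was 2115, 1126, 1092, 2339 and 1067 CPM in the normal lungs, 377, 252 and 1501 CPM in ADN tumors, and 383, 2146 and 414 CPM in ADC tumors (log2 difference -1.28 ± 0.44, adjusted p = 0.0979). Cyp2f2, the P450 gene that marks club cells, was 160 to 1483 CPM in normal lungs and 64.5 to 875 CPM in tumors (log2 difference -0.75 ± 0.71, adjusted p = 0.562). In 4 of 6 tumors Cyp2f2 was lower than in their own normal lungs. In the ADN tumor of m335 it was 695 CPM, beside 465 CPM in the own normal lung, while Cbr2 (377 beside 2115 CPM), Aldh1a1 (97.1 beside 332 CPM), Cldn10 (0.0335 beside 4.45 CPM) and Upk3a (0.669 beside 4.56 CPM) were below it, as Scgb1a1 was.

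Transcription factors and Notch pathway genes of airway lineages made up a further list. Of 22 tested, 6 rose in tumors (Cebpa, Grhl2, Foxa2, Ehf, Foxa1 and Elf3) and 3 fell (Hey1, Notch3 and Lfng), with a median log2 difference of 0.02. Ehf, an epithelial ETS factor, rose by 1.19 ± 0.19 (adjusted p = 0.00534), and Grhl2, a factor of epithelial junctions, by 1.42 ± 0.29 (adjusted p = 0.0145). Cebpa, a factor of secretory and alveolar cells, rose by 1.62 ± 0.41 (adjusted p = 0.0358), and Foxa2, a forkhead factor of lung epithelium, by 1.25 ± 0.26 (adjusted p = 0.0159). Hey1, a target of Notch signaling, fell by 1.85 (SE 0.19, adjusted p = 0.000913) and was lower in 6 of 6 tumors. Hey1 is also expressed in endothelium, and 7 of 8 endothelial genes fell in the same tumors; the part of endothelial content in this difference was not tested.

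Relatives of the members by sequence family were mostly low. Of 27 other secretoglobin genes 20 were at 0 counts in all libraries and 1, Scgb1c1, averaged at least 1 CPM, with a fitted log2 difference of -1.26 ± 0.59 (adjusted p = 0.218). Of 12 other BPI fold genes only Bpifb5 averaged 1 CPM or more. It was 14.0, 8.67, 8.20, 7.04 and 9.35 CPM in normal lungs and 1.08 to 2.56 CPM in tumors, and it fell by 2.14 (SE 0.34, adjusted p = 0.00506), while the family members Bpifa1 and Bpifb1 had fitted differences of 3.10 and 2.66. Of 18 other GABA-A receptor genes only Gabra3 reached 1 CPM on average (log2 difference -2.81 ± 0.87, adjusted p = 0.0745), and of 7 other Lypd genes only Lypd6b (0.03 ± 0.56, adjusted p = 0.982). No other Reg gene of 6 reached 1 CPM. Chadl, the relative of Chad, had a log2 difference of -0.03 ± 0.40 (adjusted p = 0.973).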

How the data were processed

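Poly-A RNA of 11 mouse lung libraries was read on an Ion Proton, per the labels' protocols. The authors deposited expected counts for 36285 transcripts in 1 column per library, not normalized. STAR 2.4.1d, Bowtie2 2.1.0, Partek and the build mm10 are named per the submitters' processing notes, and the annotation release and strand setting were not given in the sources used here. Transcripts were summed to 24515 genes and rounded for the count models (78.4% to 86.2% of sums were whole within 0.01).

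Genes passing filterByExpr on tumor and normal groups (15175 genes, 99.9% of counts, all 10 members) entered the quasi-likelihood model of edgeR 4.0.16 in R 4.3.3 after TMM scaling. Mouse entered as a fixed block, since the study pairs tumors with normal lungs. Tests were two-sided, with Benjamini-Hochberg adjustment over all genes and a threshold of 0.05, and standard errors came from the F statistic. Tumors and normal lungs were 2 groups in a first fit, and ADN, ADC and normal were 3 in another. Correlations used log2 CPM with a prior count of 2. The 2-group fit was also run on simulated counts with no mouse effect and the same change in every tumor. That run does not cover changes that differ between tumors. Normal lungs are separate mice, and the tumors of m335 share 1.

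Pairing rests on mouse identifiers. Deviations from group means correlated between tumor and own normal lung at 0.274, 0.0795 and -0.0289 (ADN of m335, m368 and m350) and -0.0685, -0.0264 and 0.239 (ADC of m335, m372 and m378), and the own lung ranked first for 2 of 6 tumors.

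The members were described in full. From each other list the genes called in tumors against normal lungs (at most 4, by size) and the most abundant gene were named, with relatives averaging at least 1 CPM and the genes most alike in profile; other genes named from these lists were chosen after their values were seen. Members and lists were chosen with earlier results of these data known. Positions end 1 base before the deposited stop. Alternatives were other size factors, no low-count filter, unrounded sums, DESeq2 1.42.0, no replicate block, and leaving out each library or mouse; a filter on 3 groups was added after seeing the data.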

Additional observations from a re-analysis of the deposited data

Results flagged for a closer look

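Within groups of 4 or more libraries, a library was singled out when its gap to the nearest other library exceeded the critical share of the group's range. Chance singles out about 1 in 20 groups if values are independent and normally distributed. Gaps were taken in CPM and not on the log scale, where high values stand less far apart. Genes with similar profiles, such as Scgb1a1, Scgb3a2 and Cckar, are not independent cases. In normal lungs, that of m372 stood apart for Scgb1a1 (20249 CPM), Scgb3a2 (694 CPM), Cckar (64.2 CPM), Gabrp (38.5 CPM) and Lypd2 (5.27 CPM). The normal lung of m335 stood apart for Bpifa1 (39.8 CPM) and Reg3g (1.81 CPM), and both tumors of that mouse were also the 2 highest libraries for these genes. Among the 6 tumors, the ADN tumor of m350 stood apart for Scgb1a1 (9475 CPM), Scgb3a2 (461 CPM), Cckar (44.6 CPM) and Chad (17.3 CPM). It was paired with the normal lung that was lowest for each of these genes. The m372 normal lung was also the shallowest library, at 19938822 counts.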

How the results depend on the processing

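Without the replicate block, 4 members were called in tumors against normal lungs (Scgb3a1, Bpifa1, Bpifb1 and Reg3g), the same 4 in ADN tumors against normal lungs, and 2 in ADC tumors (Scgb3a1 and Reg3g). Genes called were then 2242, 1779 and 1546 in these comparisons and 3 between ADC and ADN tumors, and the log2 difference of Lypd2 was 1.63 in tumors and 1.49 in ADC tumors, of Chad 0.16 in tumors, and of Scgb1a1 -1.75 between ADC and ADN. DESeq2 called 3286, 2931, 1858 and 125 genes in the 4 comparisons, with 6, 5, 1 and 0 members. Bpifa1 kept its call in ADN tumors in 9 of 23 alternatives and lost it in 14: with RLE size factors, library totals or no low-count filter (0 members each, adjusted p 0.0510, 0.0569 and 0.111), without any of m368, m350 or m378 (tumor, normal lung or mouse), and without the normal lung or the ADN tumor of m335. For m368, m350, m372 and m378, leaving out the tumor, the normal lung or the mouse gave nearly the same fit. The counts of alternatives therefore do not number separate settings. Between ADC and ADN tumors 5 genes were called with no filter and 1 with the filter on 3 groups.

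Leaving out 1 library or mouse gave 917 to 3377 genes in tumors, 0 to 1972 in ADN tumors, 65 to 1067 in ADC tumors and 0 to 2 between ADC and ADN, with 0 to 3, 0 to 4, 0 to 2 and 0 members. Without m350 (tumor, normal lung or mouse) Scgb1a1, Scgb3a2 and Cckar were called in tumors, and Scgb1a1 and Cckar in ADN and ADC tumors. Without m372 (normal lung, ADC tumor or mouse) Bpifa1, Bpifb1 and Reg3g were called in tumors and in ADN tumors. Without m378, Scgb3a1 was called in tumors. Mouse m350 gave no ADC tumor, and m372 and m378 gave no ADN tumor. Their omission acts on the comparison they lack mainly through the spread that the groups share in the fit. Without the ADC tumor of m335 the ADN comparison called Scgb3a1, Bpifa1, Bpifb1 and Reg3g. Without the ADN tumor of m335 it called 0 genes, and without all libraries of that mouse it called 660 genes and 3 members, Bpifa1 (adjusted p 0.0268), Bpifb1 (0.0419) and Reg3g (0.0341).

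Over the same omissions the log2 difference changed sign in 13 results that had not passed the test. In tumors it ran from -1.76 to 0.05 for Gabrp, -1.12 to 0.73 for Lypd2 and -0.81 to 0.67 for Chad. In ADN tumors it ran from -2.62 to 0.40 for Scgb3a2, -0.99 to 1.40 for Gabrp and -0.29 to 1.66 for Lypd2. In ADC tumors it ran from -0.08 to 2.97 for Bpifa1, -0.48 to 2.58 for Bpifb1, -0.04 to 3.43 for Reg3g and -3.0 to 0.33 for Lypd2. Between ADC and ADN it ran from -1.95 to 1.23 for Scgb1a1, -3.42 to 0.14 for Scgb3a2 and -2.96 to 0.95 for Cckar.

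The cause of these changes was not tested. Low counts limit Bpifb1, Reg3g and Lypd2 in normal lungs and in the ADC tumors of m372 and m378, where each holds 6 to 116 counts a library.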
